A study of Mus musculus with 6 samples.

Results

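The 44 genes described here encode the thin filament, titin, myosin-binding protein C, the M-band, the Z-disc and the proteins that anchor and maintain the sarcomere. The rule takes them as a list of names with no threshold on a value, and all 44 were found among the 29385 genes of the joined tables. All 44 also passed the filter on low counts that left 16804 genes for testing. Poly(A) RNA was sequenced in 6 libraries of mouse heart, 2 in each of 3 groups, collected 12 months after an administration made in newborns. Each library is called a heart below. One group was Myh6 RH/+ given vehicle. The other groups were both Myh6 RH/RQ, given either vehicle or AAV-hpCas13d, a gene therapy vector of the adeno-associated type with an RNA-cutting Cas13d enzyme. Every heart carried the RH allele of Myh6, the gene of the alpha myosin heavy chain, so no group was wild type. The vehicle, the virus dose and the promoter that drives the enzyme are not given in the sources used here. The titles of the 2 libraries of a group differ in their first digit alone. The labels do not say whether those libraries came from separate animals, from pools or from the same animal. The p-values therefore may not cover how far animals differ, and they rest on a variance partly shared over genes.

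The sarcomere is the contractile unit of striated muscle, bounded by Z-discs to which actin thin filaments are anchored. Myosin thick filaments are cross-linked at the M-band in its centre, and titin spans from the Z-disc to the M-band. Proteins of the Z-disc, of the costamere at the cell membrane and of the intercalated disc between cardiomyocytes carry force outwards, and several of them also sense stretch.

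Library totals ran from 36269261 to 51017058 reads, and the 44 genes took between 6.42% and 7% of them. In the RH/RQ vehicle hearts Xist, the RNA of the inactive X chromosome, stood at 0.274 and 0.0516 CPM, counts scaled to the library total, against 265.2 to 326 CPM in the other 4 hearts. The Y-linked gene Ddx3y stood at 85.2 CPM in both RH/RQ vehicle hearts and was listed at 0 in the other 4. Genotype or treatment and this sex-linked pattern therefore cannot be told apart where RH/RQ vehicle hearts are compared with either other group. Where a difference is given below as with treatment, only the comparison of these hearts is meant. Treated RH/RQ and RH/+ hearts shared the pattern. Ventricular cardiomyocyte markers outside the 44 genes, Myl2 and Atp2a2 among them, summed to between 25413 and 30112 CPM, while Sln, a gene of atrial muscle, did not exceed 0.110 CPM. Since the hearts were measured in bulk, fewer cells of a type and less RNA per cell cannot be told apart.

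The 5 highest levels belonged to thin filament genes when counts were divided by transcript length. Actc1, the cardiac actin that forms the filament, averaged 9048 CPM per kb of its principal transcript over the 6 hearts, with a range from 8358 to 10150 CPM per kb. It was followed by Tnnt2 at 6320, Tpm1 at 4227, Tnni3 at 3925 and Tnnc1 at 3739 CPM per kb. Csrp3, a LIM protein of the Z-disc, came next at 1420 CPM per kb. Cryab, a small heat shock protein, followed at 1177 CPM per kb. Ttn, whose principal transcript measured 100.404 kb, averaged 45.9 CPM per kb. The lowest levels belonged to Vcl at 15.2, Pdlim3 at 11.3 and Ankrd2 at 0.546 CPM per kb. This order depends on the length used: over merged exons, which count 7.752 kb for Tnnt2 in place of 1.2 kb, Tnnt2 took rank 5. Replicates lay close, since 34 of the 44 genes had both hearts of every group within a factor of 1.2.

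**Figure D1:**
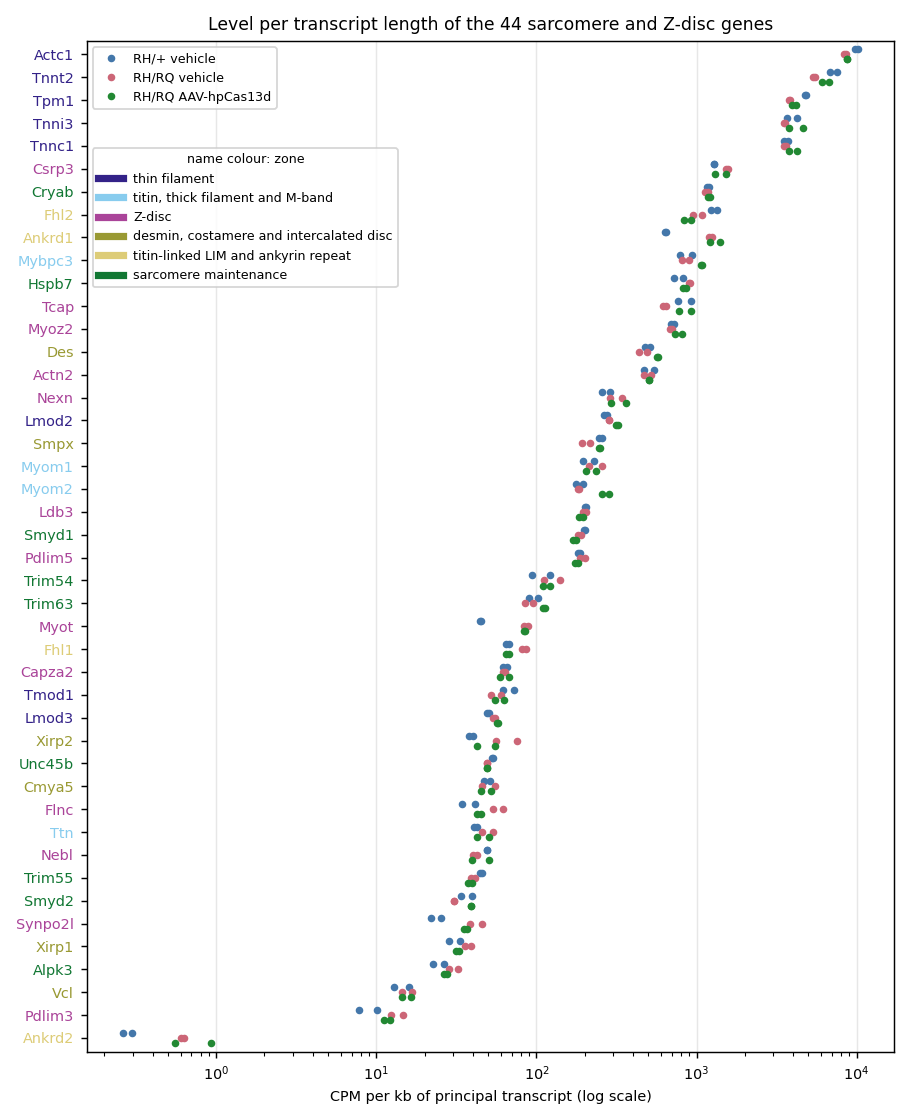
Level of each of the 44 genes as CPM per kb of its principal transcript on a log axis, 1 point per heart, ordered by mean level, with name colours for sarcomere zones. Actc1 was highest at 9048 CPM per kb on average and Ankrd2 lowest at 0.546, while the groups mostly lay close together on this axis.

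The 3 comparisons made set RH/RQ vehicle hearts beside RH/+, treated beside vehicle RH/RQ hearts, and treated hearts beside RH/+, so that each pair of comparisons shares libraries. In RH/RQ vehicle hearts 7 of the 44 genes rose against RH/+ (15.9%) and 1 fell (2.27%), by limma on log2(CPM + 1) with an adjusted p under 0.05 over all tested genes. The background over all tested genes was 3.48% higher and 1.51% lower. The 44 genes and the other lists were chosen with earlier results of these data known. Shares here and below therefore describe the lists only. The 7 that rose were Myot, Synpo2l, Flnc and Pdlim3 of the Z-disc, Xirp2 of the intercalated disc, and Fhl1 and Ankrd1, which bind titin. The gene that fell was Tcap, the titin cap of the Z-disc. Treated RH/RQ hearts against vehicle had 1 gene higher, Myom2 of the M-band, and 1 lower, Flnc, each 2.27% of the 44, beside 1.22% and 0.827% of all tested genes. Against RH/+ the treated hearts had 4 genes higher (9.09%), Myom2, Myot, Synpo2l and Ankrd1, and 1 lower (2.27%), Fhl2, beside 2.33% and 0.53% of all tested genes. In all, limma called 10 genes in at least 1 comparison and 34 in none. The median log2 difference over the 44 genes was -0.01, 0.02 and 0.10 in the 3 comparisons, beside 0.04, 0.04 and 0.08 over all tested genes. With TMM scaling these medians of the 44 were -0.061, -0.042 and -0.006, so the sign turned in both comparisons of the treated hearts.

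**Figure D2:**
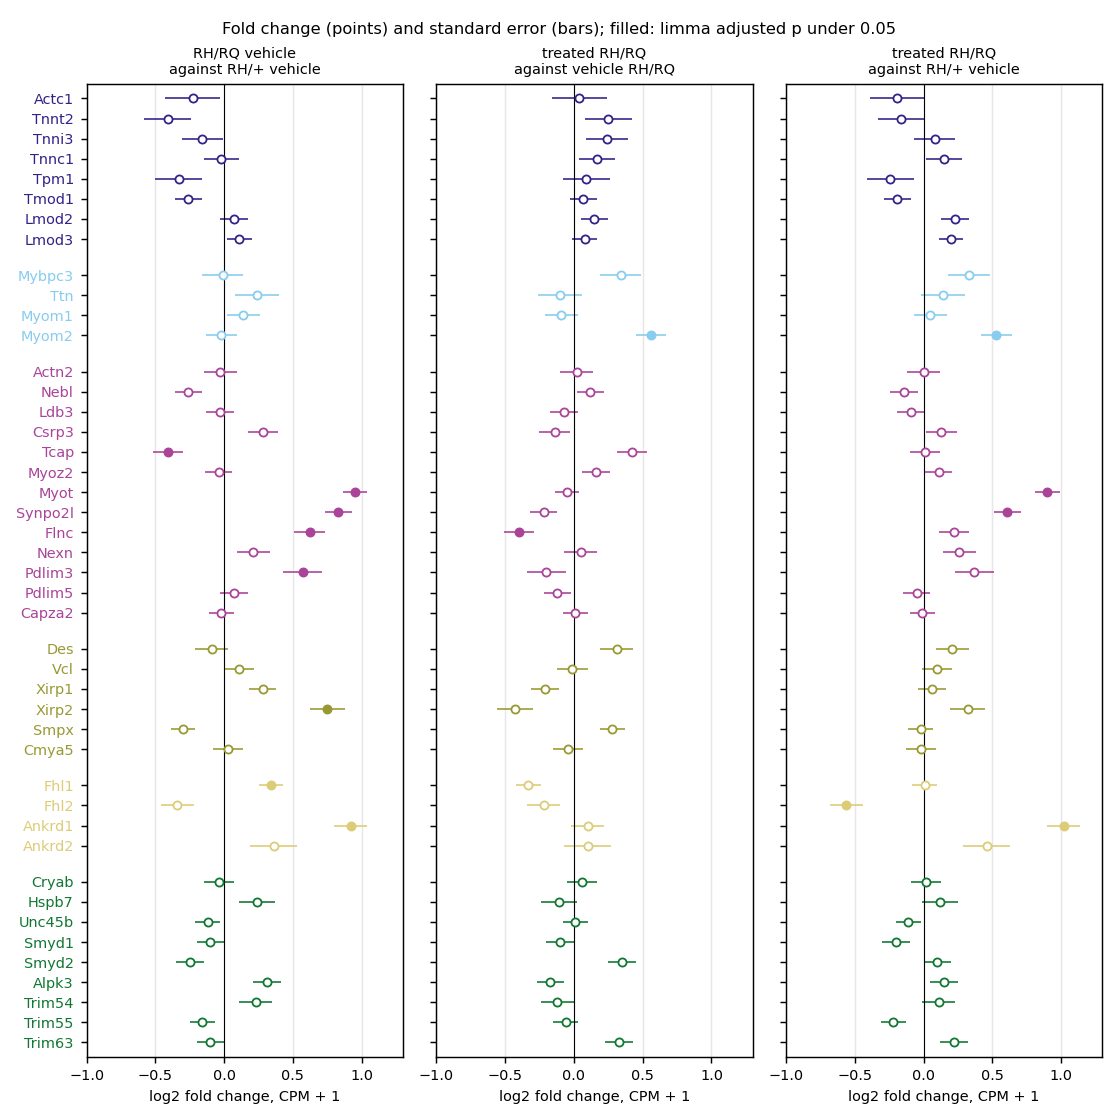
Log2 difference of log2(CPM + 1) with its standard error for each of the 44 genes in the 3 comparisons, grouped by sarcomere zone, with filled points for an adjusted p under 0.05 by limma. Of the 44 genes 34 have open points in all 3 panels, and Myot and Ankrd1 lie farthest to the right in both comparisons with RH/+.

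Groups that did not overlap were common throughout the transcriptome. Between RH/RQ vehicle and RH/+ hearts, both hearts of one group lay above both of the other for 15 of the 44 genes upwards and 13 downwards (34.1% and 29.5%), beside 30.8% and 18.5% of all tested genes. Treated against vehicle RH/RQ gave 16 upwards and 13 downwards (36.4% and 29.5%), beside 26.2% and 14.4%. Treated RH/RQ against RH/+ gave 18 and 8 (40.9% and 18.2%), beside 35% and 9.66%. Separation of 2 against 2 hearts is therefore reported below only as a description.

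The promoter windows of 5 called genes are shown because they hold short motifs bound by muscle transcription factors, and the results below return to these genes. Windows run from 250 bases before to 50 bases after a RefSeq transcript start on GRCm38.p6, are written 5′ to 3′ on the strand of the gene, and capitals mark matches on either strand to the motifs searched. In the Ankrd1 window, chr19:36119795-36120094 on the minus strand, capitals mark 2 copies of CATTCC, the core bound by TEAD factors. In the Synpo2l window shown, chr14:20664525-20664824 on the minus strand, they mark a MEF2 motif and 2 copies of CAGCTG, an E-box of the myogenic type. This window lies inside the gene. Another Synpo2l window, chr14:20668305-20668604 at the gene start, holds a MEF2 motif and no E-box. The Xirp2 window, chr2:67445752-67446051 on the plus strand, holds a MEF2 motif. The Pdlim3 window, chr8:45885237-45885536 on the plus strand, holds 2 copies of CATTCC and 1 of CAGCTG. The Fhl2 window, chr1:43196712-43197011 on the minus strand, holds a CArG box, the site of serum response factor, and a MEF2 motif.
Ankrd1: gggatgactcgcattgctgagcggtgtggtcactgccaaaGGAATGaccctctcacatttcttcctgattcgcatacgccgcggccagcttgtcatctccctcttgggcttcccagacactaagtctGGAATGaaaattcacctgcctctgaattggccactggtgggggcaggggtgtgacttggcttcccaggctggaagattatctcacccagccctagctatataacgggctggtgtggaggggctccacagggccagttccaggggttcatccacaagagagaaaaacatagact
Synpo2l: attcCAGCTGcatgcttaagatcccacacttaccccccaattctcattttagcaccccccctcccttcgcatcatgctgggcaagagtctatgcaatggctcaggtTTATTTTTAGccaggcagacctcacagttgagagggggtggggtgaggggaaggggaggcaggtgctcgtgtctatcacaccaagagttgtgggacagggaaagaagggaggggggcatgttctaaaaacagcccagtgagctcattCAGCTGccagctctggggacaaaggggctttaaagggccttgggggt
Xirp2: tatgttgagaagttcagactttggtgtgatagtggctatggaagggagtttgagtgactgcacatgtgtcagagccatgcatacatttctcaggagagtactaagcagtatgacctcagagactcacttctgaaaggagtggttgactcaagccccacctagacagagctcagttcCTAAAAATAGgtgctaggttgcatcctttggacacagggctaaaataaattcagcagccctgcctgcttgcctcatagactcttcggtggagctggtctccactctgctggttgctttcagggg
Pdlim3: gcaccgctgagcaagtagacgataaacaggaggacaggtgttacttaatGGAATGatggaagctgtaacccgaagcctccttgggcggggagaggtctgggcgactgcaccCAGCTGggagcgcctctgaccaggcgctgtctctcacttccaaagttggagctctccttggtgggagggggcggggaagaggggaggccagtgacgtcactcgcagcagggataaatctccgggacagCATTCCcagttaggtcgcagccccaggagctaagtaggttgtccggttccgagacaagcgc
Fhl2: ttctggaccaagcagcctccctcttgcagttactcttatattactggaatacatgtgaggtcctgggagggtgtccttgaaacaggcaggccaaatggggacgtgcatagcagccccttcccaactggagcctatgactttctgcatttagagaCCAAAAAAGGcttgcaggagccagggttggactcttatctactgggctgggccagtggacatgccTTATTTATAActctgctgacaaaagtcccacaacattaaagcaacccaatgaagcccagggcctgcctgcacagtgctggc
Of the 44 genes 36 matched at least 1 window, 47 windows in all. Overlapping windows were counted separately, as over all genes, so a site can count more than once. This holds for the CArG box of Ldb3 and for CATTCC of Flnc. Lmod3, Myom2, Tcap, Myot, Nexn, Xirp1, Cryab and Trim55 are named only. A CArG box was present in 9 of the 47 windows (19.1%), beside 1.63% of 32851 windows of all genes, and those windows belonged to Actc1, Fhl1, Fhl2, Ldb3, Myom1, Nebl and Vcl. The MEF2 motif was present in 8 (17%), beside 3.19% of all windows. CATTCC was present in 14 (29.8%), beside 14.7%. The E-box CAGCTG was present in 19.1% beside 16.3%, and the E-box CACGTG in 6.38% beside 7.15%. A heat shock element, searched as the units GAA, TTC and GAA spaced by NN, was present in 0% beside 0.603%. The forkhead motif TGTTTAC was present in 2.13%, in the window of Trim63, beside 3.65%. A match describes the letters of a window and no binding was measured.

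In the thin filament none of the 8 genes was called by the reported limma fit in any comparison. With a block on the first digit of the titles, limma called Tnnt2 and Tmod1 lower in RH/RQ vehicle than in RH/+ hearts. In the reported fit an unadjusted p under 0.05 was reached by 2, 0 and 2 of the 8 in the order above. Over all 16804 tested genes it was reached by 2868, 2096 and 2544. On the recovered reads edgeR called 1, 0 and 0 of them, and DESeq2 3, 0 and 2. Their summed level was 39231 and 39690 CPM in RH/+, 33165 and 32634 in RH/RQ vehicle, and 37049 and 34797 in treated RH/RQ hearts. The RH/RQ vehicle hearts were lowest and the RH/+ hearts highest, without overlap. The summed level of the ventricular markers outside the list was ordered alike, from 29304 to 30112, from 25413 to 26339 and from 28391 to 28970 CPM. Single markers did not all share this order. By group means Myl2 and Myl3 were highest in treated hearts, Ryr2 was highest in RH/RQ vehicle hearts and Slc8a1 was lowest in treated hearts. The remaining markers followed the order of the sum. Of all 8 ventricular markers limma and edgeR called 0 in each comparison, and DESeq2 called 3, 0 and 2. An unadjusted p under 0.05 in the reported fit was reached by 2, 0 and 1 of the 8. How far the ventricular marker level and the thin filament sum depend on each other was not tested.

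**Figure D3:**
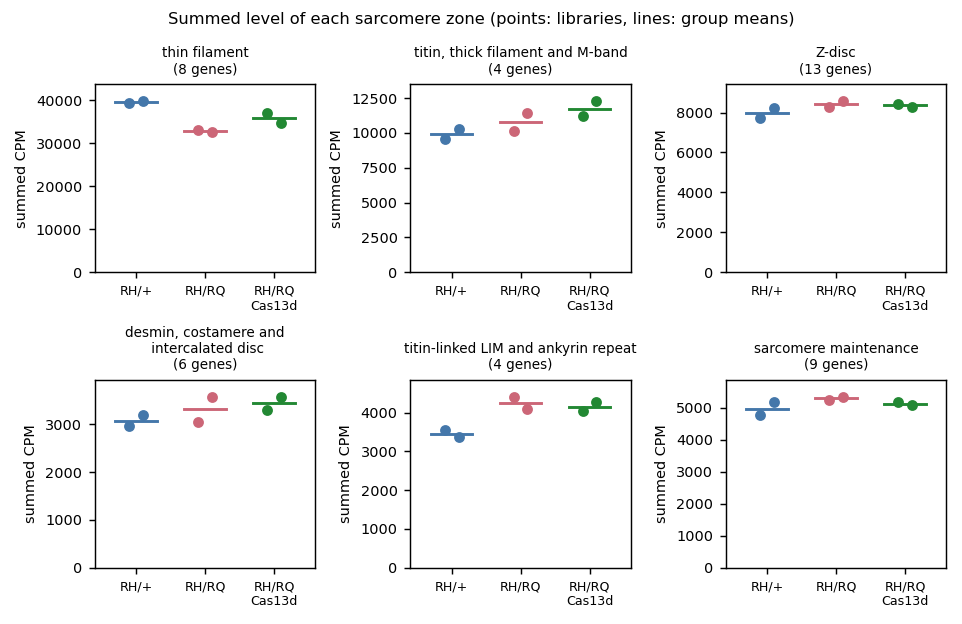
Summed CPM of the genes of each sarcomere zone in the 6 hearts, 1 point per heart in 3 groups with lines for group means. The thin filament sum is the largest, at 32634 to 39690 CPM, and is lowest in the RH/RQ vehicle hearts.

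Tnnt2, the troponin subunit that binds tropomyosin, stood at 9044 and 8142 CPM in RH/+, 6549 and 6390.4 in RH/RQ vehicle, and 8071 and 7307 in treated hearts. RH/RQ vehicle hearts were below all others. The log2 difference against RH/+ was -0.41 ± 0.17 (SE) with a limma adjusted p of 0.212, while the adjusted p was 0.0169 by edgeR and 1.38e-05 by DESeq2. Tpm1, tropomyosin, stood at 9073 and 9122 CPM in RH/+, 7328 and 7186 in RH/RQ vehicle, and 7978 and 7450 in treated hearts. Both RH/RQ groups lay below RH/+ without overlap, and DESeq2 but not limma or edgeR called Tpm1 lower in each of them. Actc1 stood at 14392 and 14953 CPM in RH/+, 12664 and 12311 in RH/RQ vehicle, and 12772 and 12871 in treated hearts. Again RH/+ lay above the rest, with a limma adjusted p of 0.624 and 0.709 for the RH/RQ vehicle and treated hearts. DESeq2 called it lower in both, with adjusted p of 0.0105 and 0.00837, and edgeR in neither. Reads of Actc1 and of the near-identical skeletal actin Acta1 may be split between them, so both levels are uncertain.

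The other 5 thin filament genes were called by none of the reported limma fit, edgeR and DESeq2. Tnni3, the inhibitory troponin subunit, ranged from 3229 to 4239 CPM over the 6 hearts. Tnnc1, which binds calcium, ranged from 2523 to 3069.8 CPM. The filament-end genes had 2 patterns. Tmod1, which caps the pointed end, ranged from 164 to 229 CPM. Its RH/+ hearts at 196 and 229 CPM lay above the RH/RQ vehicle hearts at 164 and 190.3 CPM, and the treated hearts overlapped with both groups. Lmod2, which lengthens the filament there, stood at 522 and 547 CPM in RH/+, 562 and 565 in RH/RQ vehicle, and 617 and 635 in treated hearts. Lmod3, its relative, stood at 109 and 113, 119 and 121, and 126 and 128 CPM in the same order. For both leiomodins the treated hearts were highest and RH/+ lowest, with no overlap between groups and no call. The ratio of Lmod2 to Lmod3 in CPM stayed between 4.66 and 4.98 in the 6 hearts. Treated against vehicle RH/RQ, the median log2 difference of the 8 genes was 0.12, and 8 lay above 0. Over all tested genes the median was 0.04, and 10174 of 16804 lay above 0. With TMM scaling the median of the 8 genes was 0.06 and 7 of them lay above 0.

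Titin, myosin-binding protein C and the M-band had 1 of 4 genes called, Myom2. It was higher in treated hearts against vehicle RH/RQ and against RH/+, 25% each, beside 1.22% and 2.33% of all tested genes. Myom2, the M-band protein myomesin 2, lies at chr8:15057653-15133541 on the plus strand in GENCODE M21. It stood at 901 and 988 CPM in RH/+, 932 and 925 in RH/RQ vehicle, and 1298 and 1435 in treated hearts. Both treated hearts lay above the other 4, which overlapped. The level was 1.47-fold higher in treated than in vehicle RH/RQ hearts, a log2 difference of 0.56 ± 0.11 (SE, limma adjusted p = 0.00494). Against RH/+ it was 0.53 ± 0.11 (adjusted p = 0.00595), and between the vehicle groups -0.02 (adjusted p = 0.95). The call against vehicle was lost without either of the RH/RQ vehicle hearts, and the call against RH/+ without RH/+ replicate 1 or with TMM scaling.

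Myom1, the more abundant relative of Myom2 in the vehicle groups, ranged from 1097 to 1440.5 CPM with overlapping groups. The ratio of Myom2 to Myom1 in CPM was 0.821 and 0.762 in RH/+, 0.776 and 0.642 in RH/RQ vehicle, and 1.12 and 1.09 in treated hearts. The ratio exceeded 1 in the treated hearts alone. Without a stated strand setting some Myom1 reads may come from Myl12a, which shares 207 exonic bases on the opposite strand and averaged 288 CPM. Mybpc3, cardiac myosin-binding protein C, stood at 3260.3 and 3906 CPM in RH/+, 3376 and 3713 in RH/RQ vehicle, and 4520.1 and 4450.0 in treated hearts. Treated hearts were highest without overlap, yet the log2 difference from vehicle RH/RQ was 0.34 with a limma adjusted p of 0.328. Ttn ranged from 4109 to 5356 CPM and was not called. Its 2 hearts stood at 4606 and 5356 CPM in RH/RQ vehicle and 4241 and 5048 CPM in treated RH/RQ hearts, so these groups overlapped.

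The Z-disc held 4 of the 7 rises in RH/RQ vehicle hearts, among 13 genes. That is 30.8% of the 13 higher and 7.69% lower, beside 3.48% and 1.51% of all tested genes. Myot, myotilin, which cross-links actin at the Z-disc, stood at 99.5 and 98.2 CPM in RH/+, 197 and 186 in RH/RQ vehicle, and 187 and 184 in treated hearts. Both RH/RQ groups lay well above RH/+ and overlapped with each other. The level was 1.94-fold higher in RH/RQ vehicle than in RH/+ hearts, a log2 difference of 0.95 ± 0.09 (SE, limma adjusted p = 2.21e-07). Treated hearts were 1.88-fold above RH/+, at 0.90 ± 0.09 (adjusted p = 1.37e-06), and differed from vehicle RH/RQ by -0.05 (adjusted p = 0.895). Those 2 calls of Myot were kept under all 17 alternatives.

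Synpo2l, an actin-binding protein of the heart Z-disc also called CHAP, lies at chr14:20658946-20668354 on the minus strand. The window shown above, with a MEF2 motif and E-boxes, lies inside the gene, and the window at the gene start holds no E-box. Synpo2l stood at 86.8 and 101 CPM in RH/+, 154 and 181 in RH/RQ vehicle, and 141 and 146 in treated hearts. The 3 groups did not overlap, with treated hearts between the vehicle groups. Synpo2l rose by a log2 difference of 0.83 ± 0.10 in RH/RQ vehicle (SE, limma adjusted p = 9.42e-06) and of 0.61 ± 0.10 in treated hearts (adjusted p = 0.000815), both against RH/+. Between the RH/RQ groups the difference was -0.22 (adjusted p = 0.377).

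Flnc, filamin C, an actin cross-linker that responds to mechanical load, lies at chr6:29433256-29461883 on the plus strand. It stood at 305 and 367 CPM in RH/+, 478 and 555 in RH/RQ vehicle, and 381 and 399.9 in treated hearts. The groups did not overlap, and the treated hearts lay between the vehicle groups. Flnc rose by 0.62 ± 0.11 on the log2 scale in RH/RQ vehicle against RH/+ (SE, limma adjusted p = 0.000601). Treated against vehicle RH/RQ it fell by 0.40 ± 0.11 (adjusted p = 0.0489), and treated hearts did not pass the test against RH/+ (0.22, adjusted p = 0.325). The fall with treatment was lost without RH/RQ vehicle replicate 2, without treated replicate 1 and with a pseudocount of 5. Relative to Actn2, the alpha-actinin of the Z-disc, Flnc in CPM was 0.214 and 0.224 in RH/+, 0.336 and 0.353 in RH/RQ vehicle, and 0.249 and 0.264 in treated hearts.

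Pdlim3, a PDZ and LIM protein that binds alpha-actinin, lies at chr8:45885461-45919548 on the plus strand, and its window above holds 2 copies of CATTCC. It stood at 12.4 and 16.2 CPM in RH/+, 19.7 and 23.5 in RH/RQ vehicle, and 19.5 and 17.8 in treated hearts. RH/+ hearts were lowest, without overlap with the rest. The log2 difference in RH/RQ vehicle against RH/+ was 0.57 ± 0.14 (SE, limma adjusted p = 0.0163), and the call was lost when either RH/+ replicate 1 or replicate 2 of RH/RQ vehicle was left out.

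Tcap, which caps the end of titin at the Z-disc, lies at chr11:98383811-98384953 on the plus strand. It stood at 723 and 879 CPM in RH/+, 585 and 611 in RH/RQ vehicle, and 870.5 and 739 in treated hearts. RH/RQ vehicle hearts were below all others, and the other groups overlapped. Against RH/+ it fell by 0.41 ± 0.11 on the log2 scale (SE, limma adjusted p = 0.0332), to 0.747 of the RH/+ level. Treated hearts stood 0.42 ± 0.11 above vehicle RH/RQ with an adjusted p of 0.0526, which DESeq2 but not edgeR called (0.0325 and 0.125), and 0.01 from RH/+ (adjusted p = 0.982). The fall in RH/RQ vehicle was lost without RH/+ replicate 2 and without either RH/RQ vehicle heart. In CPM, the ratio of Tcap to Ttn was 0.168 and 0.214 in RH/+, 0.127 and 0.114 in RH/RQ vehicle, and 0.205 and 0.146 in treated hearts.

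**Figure D4:**
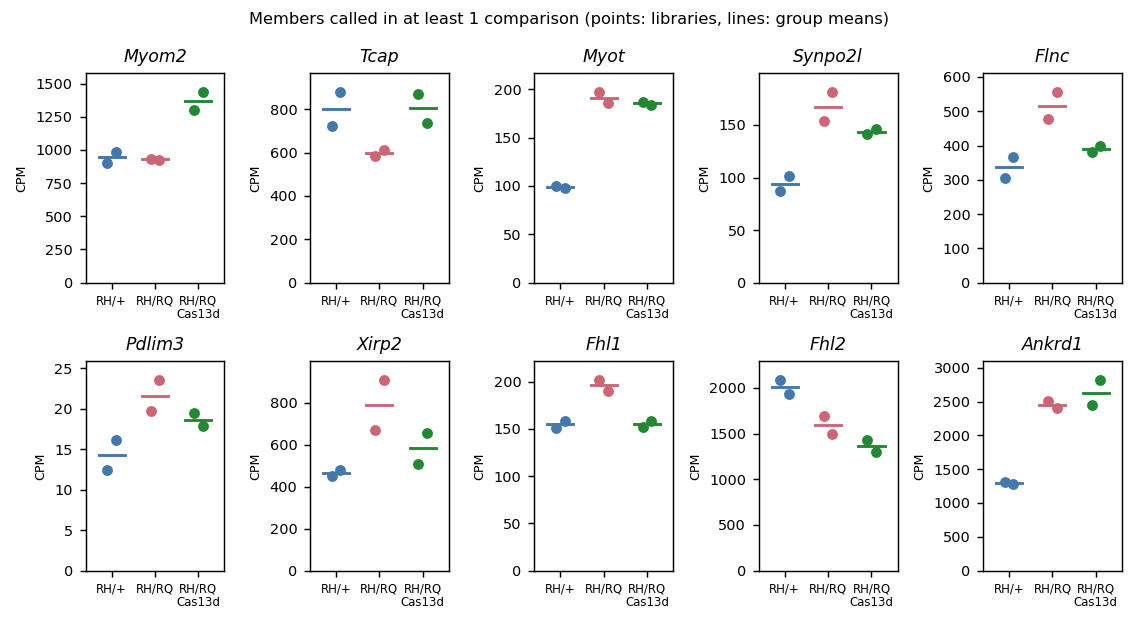
CPM in each heart of the 10 genes called in at least 1 comparison, 1 panel per gene with points for single hearts, horizontal lines for group means and an axis from 0. Myot, Synpo2l and Ankrd1 are high in both RH/RQ groups, Flnc and Fhl1 are highest in RH/RQ vehicle hearts, and Myom2 is high in treated hearts.

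The other 8 Z-disc genes were not called by limma, edgeR or DESeq2 in any comparison over the 6 libraries. The authors' deposited table for RH/RQ vehicle against RH/+ gave Nebl an adjusted p of 0.0106 and Csrp3 one of 0.0335, and limma called Nebl lower there in a fit of those 4 libraries alone. Actn2 ranged from 1424 to 1636 CPM with overlapping groups. Ldb3, a PDZ and LIM protein that binds it, ranged from 948 to 1039 CPM, and Pdlim5 of the same family from 875 to 1013 CPM. Capza2, part of the protein that caps actin at the Z-disc, ranged from 150.4 to 171 CPM. Csrp3 stood at 1154 and 1157 CPM in RH/+, 1423 and 1381 in RH/RQ vehicle, and 1366 and 1177 in treated hearts. RH/+ was below both RH/RQ groups, without a call by limma. Nebl, nebulette, ranged from 229.7 to 293 CPM. Myoz2, a calsarcin that binds calcineurin, ranged from 806 to 961 CPM. Nexn, nexilin, ranged from 656 to 932 CPM.

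In the zone of desmin, the costamere and the intercalated disc, Xirp2 rose among 6 genes. In RH/RQ vehicle against RH/+ hearts that is 16.7%, beside 3.48% of all tested genes. Xirp2, an actin-binding repeat protein of the intercalated disc, lies at chr2:67446002-67526614 on the plus strand. It stood at 450.0 and 478 CPM in RH/+, 672 and 909 in RH/RQ vehicle, and 508 and 658 in treated hearts. The 3 groups did not overlap, and treated hearts lay between. The log2 difference in RH/RQ vehicle against RH/+ was 0.75 ± 0.13 (SE, limma adjusted p = 0.000675), whereas DESeq2 gave an adjusted p of 0.113. Treated against vehicle RH/RQ it was -0.43 ± 0.13 (adjusted p = 0.094) and against RH/+ 0.32 (adjusted p = 0.226). The 2 RH/RQ vehicle hearts differed by 0.436 on the log2 scale, among the wider replicate gaps of the list, whose median largest gap was 0.197.

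Xirp1, the other Xin repeat gene, stood at 166 and 194 CPM in RH/+, 209 and 226 in RH/RQ vehicle, and 184 and 191 in treated hearts. Its highest hearts were those of RH/RQ vehicle, with a limma adjusted p of 0.112 against RH/+. Smpx, a small protein of the costamere whose gene lies on the X chromosome, stood at 280.4 and 266 CPM in RH/+, 236 and 209 in RH/RQ vehicle, and 273 and 267 in treated hearts. RH/RQ vehicle hearts were lowest without overlap, with limma adjusted p values of 0.0702 against RH/+ and 0.157 against treated hearts. Against RH/+ the adjusted p was 0.0503 by edgeR and 0.00248 by DESeq2, which called it lower. With RLE or TMM factors, with a block on the first digit of the titles and in the fit of 4 libraries, limma called Smpx lower too. Des, the intermediate filament protein desmin, stood at 1437 and 1559 CPM in RH/+, 1318 and 1491 in RH/RQ vehicle, and 1726 and 1746 in treated hearts. Treated hearts were highest, and the difference of 0.31 from vehicle RH/RQ had a limma adjusted p of 0.237. Vcl, vinculin of the costamere, ranged from 67.6 to 87.8 CPM, and Cmya5, myospryn, from 536 to 648 CPM, both with overlapping groups.

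All 4 genes that bind titin through LIM or ankyrin repeats separated RH/RQ vehicle from RH/+ hearts, 3 upwards and 1 downwards. Over all tested genes 30.8% separated upwards and 18.5% downwards. Of the 4 genes limma called 2 higher there (50%), beside 3.48% of all tested genes. Ankrd1, the stretch-induced cardiac ankyrin repeat protein that binds titin in the I-band, lies at chr19:36111961-36120099 on the minus strand. It stood at 1309 and 1281 CPM in RH/+, 2512 and 2399 in RH/RQ vehicle, and 2444 and 2817 in treated hearts. Both RH/RQ groups lay above RH/+ and overlapped with each other. The level was 1.90-fold higher in RH/RQ vehicle hearts, 0.92 ± 0.12 on the log2 scale (SE, limma adjusted p = 3.26e-05). In treated hearts it was 2.03-fold higher than in RH/+, 1.02 ± 0.12 (adjusted p = 2.31e-05), and the RH/RQ groups differed by 0.10 (adjusted p = 0.817). Ankrd2, the related gene of slow skeletal muscle, stood at 0.289 and 0.326 CPM in RH/+, 0.666 and 0.696 in RH/RQ vehicle, and 1.02 and 0.606 in treated hearts. Its lowest library held 11 reads, RH/+ was lowest without overlap, and it was not called.

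Fhl1, a LIM protein that binds titin and takes part in stretch signalling, lies on the X chromosome at chrX:56731787-56793346 on the plus strand. It stood at 151 and 159 CPM in RH/+, 202 and 191 in RH/RQ vehicle, and 152 and 159 in treated hearts. RH/RQ vehicle hearts lay above the other 4, whose levels overlapped. The log2 difference in RH/RQ vehicle against RH/+ was 0.34 ± 0.09 (SE, limma adjusted p = 0.0284), and treated against vehicle RH/RQ -0.33 ± 0.09 (adjusted p = 0.0567). By edgeR the first had an adjusted p of 0.101 and the second 0.0368, and DESeq2 called both. The first was also lost without any 1 of the 4 hearts compared. The hearts with the higher level are the same 2 that lacked Xist and held Ddx3y, and the part of sex in the level cannot be told apart from genotype and treatment.

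Fhl2, a LIM protein that docks metabolic enzymes to titin, lies at chr1:43123074-43196984 on the minus strand, with the CArG box and MEF2 motif shown above. It stood at 2084 and 1938 CPM in RH/+, 1691 and 1491 in RH/RQ vehicle, and 1433 and 1298 in treated hearts. The groups did not overlap, and treated hearts were lowest. Against RH/+ it fell by 0.56 ± 0.12 on the log2 scale in treated hearts (SE, limma adjusted p = 0.00916), to 0.679 of the RH/+ level. In RH/RQ vehicle hearts the difference was -0.34 (limma adjusted p = 0.117), which edgeR and DESeq2 called lower with adjusted p of 0.0405 and 0.000358, and treated and vehicle RH/RQ differed by -0.22 (adjusted p = 0.478). The call was lost without RH/+ replicate 1.

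None of the 9 sarcomere maintenance genes, chaperones, methyltransferases, a kinase-like protein and ubiquitin ligases, was called by the reported limma fit in any comparison. With CPM over nuclear genes, with a block on the first digit of the titles and in the fit of 4 libraries, limma called Alpk3 higher in RH/RQ vehicle against RH/+. With the block it also called Smyd2 and Trim63 higher in treated than in vehicle RH/RQ hearts. In the reported fit an unadjusted p under 0.05 was reached by 2 of the 9 in each comparison. Over all 16804 tested genes it was reached by 2868, 2096 and 2544. On the recovered reads edgeR called 0 in all 3 comparisons. DESeq2 called 0, 0 and 2, the last being Smyd1 and Trim55, lower in treated hearts than in RH/+. Cryab, the small heat shock protein that binds desmin and titin, ranged from 1258 to 1352 CPM. Unc45b, the myosin chaperone, ranged from 173 to 189 CPM, and Smyd1, its partner in myosin assembly, from 559.6 to 662 CPM. Hspb7 stood at 1994 and 2283 CPM in RH/+, 2501 and 2534 in RH/RQ vehicle, and 2369 and 2283 in treated hearts. RH/RQ vehicle hearts were highest. Smyd2, a methyltransferase that protects titin, stood at 66.1 and 56.6 CPM in RH/+, 51.3 and 51.4 in RH/RQ vehicle, and 65.8 and 65.3 in treated hearts. Its lowest hearts were those of RH/RQ vehicle, with a limma adjusted p of 0.0833 for treated against vehicle.

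Alpk3, a pseudokinase of the M-band, stood at 144 and 169 CPM in RH/+, 182 and 206 in RH/RQ vehicle, and 169.6 and 175 in treated hearts. RH/RQ vehicle hearts were highest, with a limma adjusted p of 0.0702 against RH/+. The 3 muscle RING-finger ligases differed in the order of the groups. Trim63, which ubiquitinates sarcomere proteins, stood at 170.2 and 192 CPM in RH/+, 159 and 178 in RH/RQ vehicle, and 208 and 215 in treated hearts. Treated hearts were highest, with a limma adjusted p of 0.0899 against vehicle RH/RQ. Trim55 ranged from 97.3 to 118 CPM with RH/+ highest, and Trim54 from 135 to 202 CPM with overlapping groups.

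A wider list of 75 sarcomere genes outside the 44 was set beside them, of which 74 were in the tables and 70 were tested. In RH/RQ vehicle hearts 8 of the 70 rose against RH/+ and 1 fell (11.4% and 1.43%), beside 3.48% and 1.51% of all tested genes. Treated against vehicle RH/RQ had 3 higher and 2 lower (4.29% and 2.86%), beside 1.22% and 0.827%. Treated RH/RQ against RH/+ had 4 higher and 0 lower (5.71% and 0%), beside 2.33% and 0.53%. For the count of 0, edgeR and DESeq2 each called 1 gene lower. An unadjusted p under 0.05 in either direction was reached there by 13 of the 70, beside 2544 of all 16804 tested genes. Those called by limma were Nrap, Neb, Tnnt1, Acta1, Mybpc2, Flna, Hspb1, Fbxo32, Ankrd23, Cavin4 and Fhl3.

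Nrap, which ties actin to the intercalated disc, stood at 435 and 536 CPM in RH/+, 678 and 784 in RH/RQ vehicle, and 623 and 669.5 in treated hearts. It rose in both RH/RQ groups, by log2 differences of 0.59 (limma adjusted p = 0.00174) and 0.42 (adjusted p = 0.041), and the second was called by neither edgeR nor DESeq2. Neb, nebulin of skeletal thin filaments, stood at 3.02 and 3.01 CPM in RH/+, 6.19 and 7.17 in RH/RQ vehicle, and 16.0 and 10.1 in treated hearts. It was called in all 3 comparisons, with log2 differences of 0.93, 0.84 and 1.78. Mybpc2, the fast skeletal myosin-binding protein C, had the same order of groups, from 9.95 and 13.2 CPM through 42.0 and 40.4 to 57.3 and 58.8 CPM, and was also called in all 3. Of the 10 skeletal muscle markers 9 were listed, and they summed to between 1483 and 1903 CPM, of which the mitochondrial creatine kinase Ckmt2, also a heart gene, made up 1481 to 1902 CPM. The others stayed near 0, with the skeletal myosins Myh1 and Myh2 at no more than 0.0588 and 0.0276 CPM and Myog, a myogenic factor, at no more than 0.0264 CPM.

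Ankrd23, a relative of Ankrd1 in the same titin-binding family, stood at 14.4 and 13.1 CPM in RH/+, 25.9 and 25.9 in RH/RQ vehicle, and 18.9 and 17.6 in treated hearts. It rose by 0.87 in RH/RQ vehicle hearts (limma adjusted p = 6.59e-05) and was lower by 0.48 in treated than in vehicle RH/RQ hearts (adjusted p = 0.0394). Ankrd1 over the same hearts showed no such difference between RH/RQ groups (0.10), and the 2 genes were not tested against each other. Hspb1, a small heat shock protein, stood at 200.3 and 204 CPM in RH/+, 239 and 262 in RH/RQ vehicle, and 201 and 185 in treated hearts. Hspb1 was lower by 0.37 in treated than in vehicle RH/RQ hearts (limma adjusted p = 0.0324). Fbxo32, the muscle ubiquitin ligase atrogin-1, stood at 126 and 125 CPM in RH/+, 110.1 and 120.4 in RH/RQ vehicle, and 143 and 173 in treated hearts. It was higher by 0.45 in treated than in vehicle RH/RQ hearts (limma adjusted p = 0.015), a call that DESeq2 but not edgeR made. Cavin4, a caveolar protein of cardiomyocytes, Fhl3, a LIM protein, and Flna, filamin A, rose in RH/RQ vehicle hearts by log2 differences of 0.32, 0.61 and 0.34 (adjusted p = 0.038, 0.0278 and 0.0356 by limma). Of these edgeR called Fhl3 alone, and DESeq2 called Fhl3 and Flna. Acta1 rose against RH/+ in both RH/RQ groups by limma, with log2 differences of 1.06 and 0.80. Tnnt1, slow skeletal troponin T, fell by 0.55 in RH/RQ vehicle hearts (limma adjusted p = 0.0302), from 14.1 and 12.3 to 8.02 and 9.33 CPM.

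**Figure D5:**
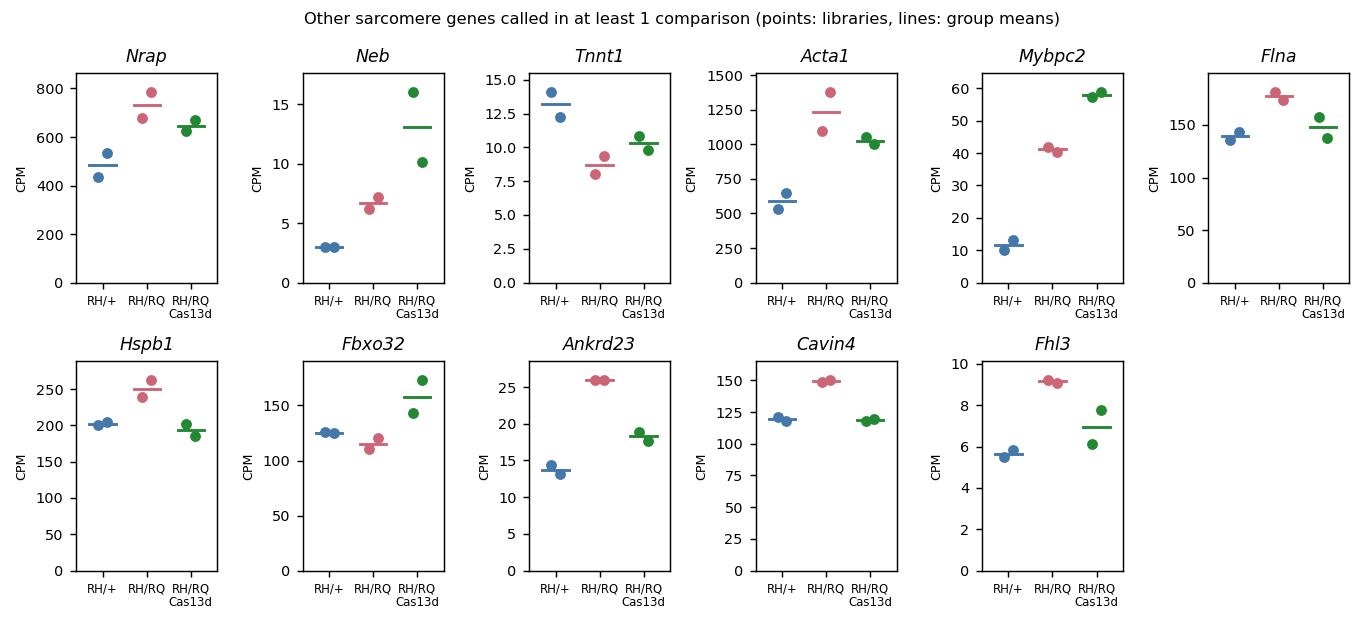
CPM in each heart of the 11 genes of the wider sarcomere list called in at least 1 comparison, 1 panel per gene with points for single hearts, horizontal lines for group means and an axis from 0. Mybpc2 and Neb rise in steps from RH/+ to treated hearts, while Ankrd23, Hspb1 and Cavin4 are highest in RH/RQ vehicle hearts.

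Markers of other heart cells moved with some of these groups. The 6 fibroblast markers, Col1a1 and Dcn among them, summed to between 822 and 882 CPM in RH/+, 1329 and 1428 in RH/RQ vehicle, and 1206 and 1406 in treated hearts, and limma called 4 of the 6 higher in each RH/RQ group against RH/+. In the treated hearts edgeR and DESeq2 each called 2 of the 6. Against vehicle RH/RQ the treated hearts had 2 of the 6 called lower, Col1a1 and Col1a2. The other 4 lay above 0 there without a call, and the median log2 difference of the 6 was 0.07. Tcf21 lay below RH/+ in RH/RQ vehicle and treated hearts, at -0.22 and -0.03, without a call. The 4 macrophage markers summed to 66.3 CPM in both RH/+ hearts, 88.2 and 93.0 CPM in RH/RQ vehicle, and 72.7 and 79.3 CPM in treated hearts, with 2 called higher in RH/RQ vehicle against RH/+. Both sums follow the direction of the rises in Myot, Flnc and Flna in RH/RQ vehicle hearts, and their part in those results was not tested. Of the 5 smooth muscle markers Acta2 alone was called, lower in both RH/RQ groups against RH/+. The list did not move together: 3 of the 5 lay above RH/+ in RH/RQ vehicle hearts and 2 in treated hearts. The median log2 differences of the 5 were 0.09 and -0.13. Of the 4 endothelial markers 0 were called by limma or edgeR. DESeq2 called 1 of those 4 lower in treated than in vehicle RH/RQ hearts. An unadjusted p under 0.05 was reached by 2, 1 and 0 of them, beside 2868, 2096 and 2544 of all 16804 tested genes. The atrial list summed to between 113 and 144 CPM in the 4 vehicle hearts and to 432 and 756 CPM in treated hearts, where its sum was almost wholly Nppa, a natriuretic peptide gene that was called higher. Myl7, an atrial light chain, stayed at or under 0.696 CPM throughout.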

How the data were processed

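Gene-level RNA abundance was measured in 6 heart libraries. The authors deposited 3 full tables of CPM, gene counts divided by the library total, with 4 libraries each. A library that stood in 2 tables had identical values, with a largest difference of 0. Per the submitters' processing notes the tools were HISAT2, HTSeq and DESeq2 and the build was mm10, while versions, annotation and strand setting are not given in the sources used here. Per the file headers these deposited tables also carry the mean normalised signal of each gene, the log2 fold change and its error, a score from the authors' test, and raw and adjusted p-values. By the authors' deposited table of each comparison, in the order used here, 14, 4 and 9 of the 44 genes had an adjusted p under 0.05. Dividing CPM by what 1 read is worth gave whole reads for 100% of values, within a tolerance of 0.001.

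Groups were read from the genotype and treatment labels. The reported test was limma 3.58.1 with a trend (R 4.3.3) on log2(CPM + 1), two-sided, with all 6 libraries in 1 fit of 3 group means. Changes of low genes come out too small on this scale. The trend pulls the variance of a gene towards that of genes at a similar level. Standard errors and p-values therefore do not measure the spread of a gene's own replicates alone. Actc1 had an SE of 0.20 in RH/RQ vehicle against RH/+ with a largest replicate log2 gap of 0.0552. Xirp2 had an SE of 0.13 there with a gap of 0.436. The filter on low genes was filterByExpr at a minimum count of 10, and Benjamini-Hochberg adjustment ran over all 16804 genes tested. On the recovered reads edgeR 4.0.16 called 524, 181 and 248 genes higher and 394, 200 and 163 lower, DESeq2 1.42.0 called 452, 175 and 228 higher and 453, 187 and 189 lower, and limma 585, 205 and 391 higher and 253, 139 and 89 lower. A limit of 3 reads, which a count of 0 allows, was 0.0588 to 0.0827 CPM, for counting error only. Levels between genes were divided by the length of the principal transcript in GENCODE M21, and of the 44 genes 13 share exonic bases with another gene. Promoter windows came from RefSeq on GRCm38.p6. The limma test alone was tried on simulated reads, with the same spread setting for all genes and no changed gene under 1.5-fold. That trial cannot show how smaller differences, or genes of another spread, are called.

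All 44 genes are described. Of the wider list those called in any comparison are named, and of the marker lists sums and defining genes are given. The members and lists were chosen with earlier results of these data known. The alternatives were edgeR, DESeq2, TMM and RLE factors, CPM over nuclear genes, pseudocounts of 0.1 and 5, 2 other filters, the 4 libraries of a comparison alone, a block on the first digit of the titles, and leaving out each library.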

Additional observations from a re-analysis of the deposited data

How the results depend on the processing

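The 15 calls among the 44 genes kept their direction under all 17 alternatives, and 2 of them, both of Myot, also kept their side of the threshold under all 17. Without a filter on low genes the count in RH/RQ vehicle against RH/+ was 1 higher and 0 lower, in treated against vehicle RH/RQ 0 and 0, and in treated RH/RQ against RH/+ 1 and 0, where the reported counts were 7 and 1, 1 and 1, and 4 and 1. The cause was not tested. Members lower in RH/RQ vehicle than in RH/+ hearts numbered 3 with edgeR, 6 with DESeq2, 2 with RLE factors, 2 with TMM factors and 4 in a fit of the 4 libraries alone. Those higher with treatment against vehicle numbered 2 with DESeq2, 2 with a pseudocount of 0.1, 2 with a minimum mean of 1 CPM and 2 in the fit of 4 libraries. Those lower in that comparison numbered 2 with edgeR, DESeq2, RLE factors or TMM factors, 3 with CPM over nuclear genes and 0 with a pseudocount of 5. DESeq2 called 5 lower in treated RH/RQ against RH/+. A replicate block on the first digit of the titles gave 9 higher and 5 lower in RH/RQ vehicle against RH/+, and 4 higher and 3 lower in treated against vehicle RH/RQ. The same-digit libraries had deviation correlations of 0.130, -0.020 and 0.074 between groups. These run over all tested genes with 2 libraries per group, so they cannot exclude an effect shared by libraries of the same first digit. What the digit stands for is not given, and the reported fit leaves it out.

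With 1 library left out, the counts for RH/RQ vehicle against RH/+ ran from 5 to 8 higher and from 0 to 4 lower. For treated against vehicle RH/RQ they ran from 0 to 2 higher and from 0 to 3 lower, and for treated RH/RQ against RH/+ from 3 to 5 higher and from 0 to 1 lower. Scaling moved the balance of all calls: with TMM factors 527 genes were higher and 404 lower in RH/RQ vehicle hearts, 172 and 196 with treatment against vehicle, and 237 and 164 with treatment against RH/+. DESeq2 called Actc1, Tnnt2 and Tpm1 lower in RH/RQ vehicle hearts where the reported limma fit did not, and the cause was not tested.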
